A study of Rattus norvegicus with 14 samples.

Results

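The cyclic AMP response element-binding protein (CREB) family and its coactivators were followed here as 8 listed genes. They were the transcription factors *Creb1*, *Crem* and *Atf1*, the CREB-regulated transcription coactivators *Crtc1*, *Crtc2* and *Crtc3*, and the histone acetyltransferases *Crebbp* (CBP) and *Ep300* (p300). The genes were chosen by symbol, and 7 of the 8 were found among the 18239 genes of the neuron table and among the 31791 of the astrocyte table. *Ep300* was not analysed here. RNA was sequenced from hippocampal cultures of embryonic day 18 Sprague Dawley rats that had been placed in aging model (AM) medium, in which growth supplements were reduced for neurons and serum was charcoal-stripped for astrocytes. Neurons on day 10 in culture spent 4 h in AM medium and then 16 h with vehicle (AM-Veh, 0.001% ethanol) or 100 nM allopregnanolone (AM-Allo), a neurosteroid that acts on GABA-A receptors. Astrocytes, enriched from mixed glia by shaking, spent 24 h in AM medium and then 24 h with vehicle or the same dose. All groups compared therefore carried the AM exposure. There were 4 AM-Veh and 4 AM-Allo neuron libraries, numbered 1-1, 1-2, 2-1 and 2-2 in each group, and 3 AM-Veh and 3 AM-Allo astrocyte libraries.

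CREB binds the palindrome TGACGTCA in promoters, and it activates transcription once kinases that follow cyclic AMP, calcium or growth factor signals have phosphorylated a serine in its activation domain. The phosphorylated factor then recruits CBP and p300, which acetylate histones. CRTC proteins are a separate calcium-dependent input: salt-inducible kinases hold them in the cytoplasm, and calcineurin releases them to the nucleus. In hippocampal neurons this pathway is known for linking calcium entry to the transcription of plasticity genes. Phosphorylation and nuclear entry leave no direct trace in RNA levels, so the values below describe transcript abundance only.

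Values are normalized counts per gene, in which the authors divided estimated reads by a factor for each library. Libraries held about 19600000 to 25200000 reads on genes in neurons and 22200000 to 28200000 in astrocytes. The neuron cultures had the neuronal markers *Map2*, *Tubb3*, *Rbfox3*, *Syn1* and *Slc17a7* at 7.48 to 1000 times their level in astrocyte cultures, in CPM (normalized counts scaled to the same total in every library). The sixth neuron marker measured, *Gad1* of inhibitory neurons, was at 50.2 CPM in neuron and 77.0 in astrocyte cultures. The neuron cultures also had astrocyte RNA. *Gfap* was at 3090 to 5320 CPM there against 5480 to 5880 in astrocyte cultures, and *Slc1a3* at 2580 to 2790 against 1820 to 1970. The astrocyte markers *Slc1a2*, *S100b* and *Aldh1l1* averaged 17.4, 3.94 and 1.44 times their astrocyte-culture level in neuron cultures, and *Aqp4* 0.866 times. The oligodendrocyte lineage gene *Olig1* was at 583 to 713 CPM in neuron cultures, and *Col1a2*, a mesenchymal collagen gene, at 1170 to 1350 in astrocyte cultures, while *Dcn*, also a mesenchymal marker, averaged 7.85 CPM in neuron and 0.198 in astrocyte cultures. The values are therefore those of mixed cultures, in which fewer cells of a type and less RNA per cell cannot be told apart. The labels do not say whether the libraries of a group came from separate cultures, so p-values measure only the spread between these libraries.

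Between AM-Allo and AM-Veh, no member passed the adjusted threshold in either kind of culture, and *Crem* in astrocytes was the 1 that passed the unadjusted one. In neurons, 0 of the 7 members passed an adjusted p of 0.05 and 0 passed an unadjusted p of 0.05, the rule that the study itself used. Over all 15314 genes tested in neurons, 5.69% passed the unadjusted threshold (3.21% higher and 2.48% lower in AM-Allo) and 0.0261% the adjusted one. In astrocytes, 0 of 7 passed the adjusted and 1 of 7 the unadjusted threshold, beside 0.0065% and 7.01% of 15380 genes (3.72% higher and 3.29% lower). *Crem* was higher in AM-Allo. The median log2 fold change of the members was 0.039 in neurons and 0.066 in astrocytes, beside medians of -0.0015 and 0.0014 over all genes tested. All tests were limma fits to log2 values with Benjamini-Hochberg adjustment over all genes tested.

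**Figure D1:**
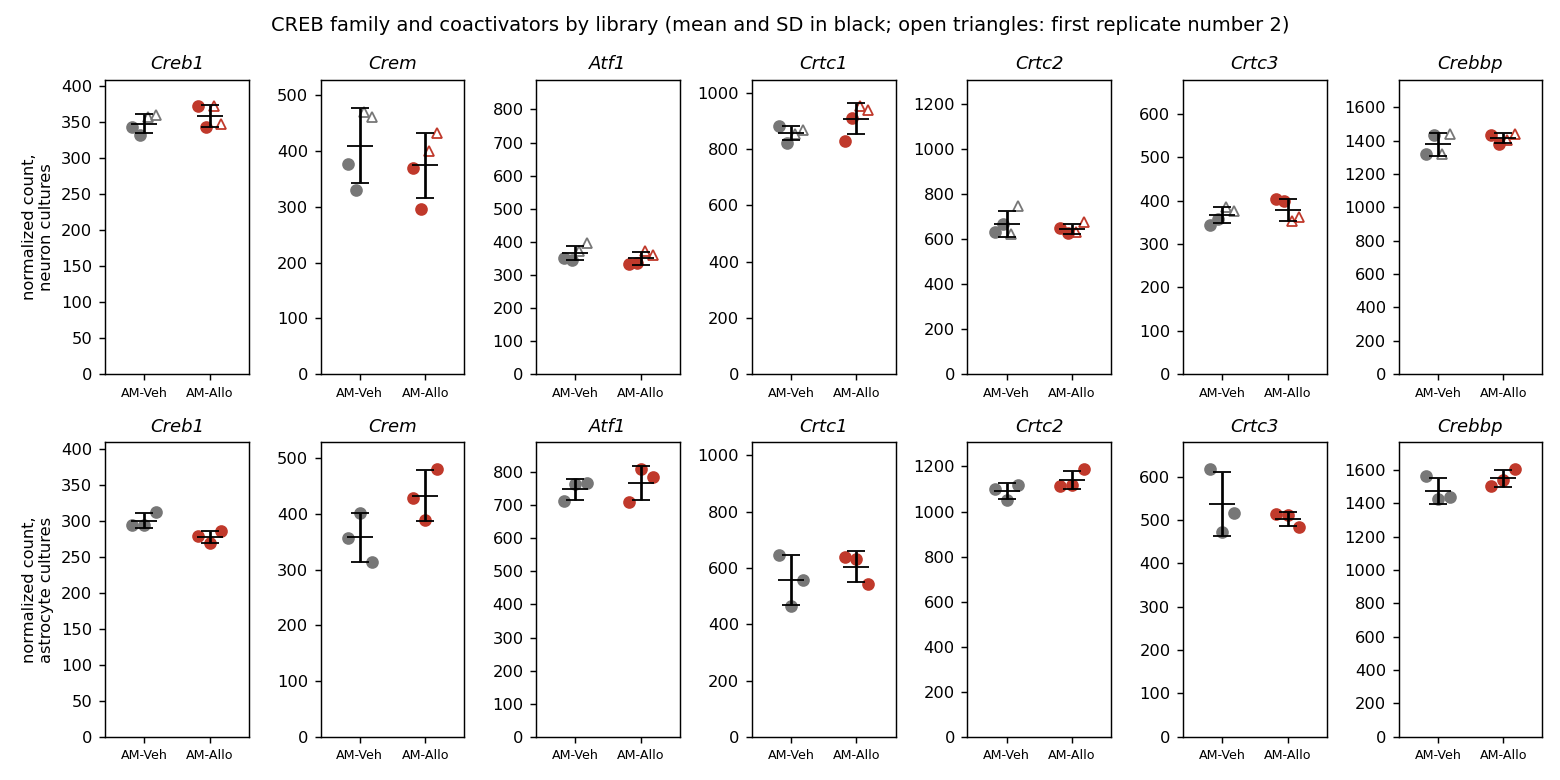
Normalized counts of the 7 members in each library, with neuron cultures in the upper row and astrocyte cultures in the lower row. Grey marks AM-Veh and red AM-Allo, open triangles are neuron libraries whose first replicate number is 2, and black bars give the mean and SD. AM-Allo and AM-Veh overlap for every member except *Creb1* in astrocytes, and the neuron *Crem* values lie higher in the libraries of first number 2.

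*Creb1* encodes the founding member of the family. In neurons its normalized counts were 344, 332, 357 and 360 in the AM-Veh libraries 1-1, 1-2, 2-1 and 2-2, and 372, 344, 372 and 348 in the AM-Allo libraries of the same numbers. The groups overlapped. The means were 348 ± 12.6 and 359 ± 15.3 (SD, n = 4 each), a log2 fold change of 0.043 with a 95% interval of -0.088 to 0.17. In astrocytes the counts were 295, 295 and 312 with vehicle and 279, 269 and 286 with Allo, so that every AM-Allo library lay below every AM-Veh library. The means were 301 ± 9.74 and 278 ± 8.30 (SD, n = 3 each), and the log2 fold change was -0.11 with an interval of -0.29 to 0.067 (limma, adjusted p = 0.83). The two-sided exact permutation test gave p = 0.1, which is the smallest value that 3 libraries against 3 can reach. *Creb1* was the 1 member of 7 with no overlap in astrocytes, beside 12.5% of all genes tested, and 0 of 7 had none in neurons, beside 3.95%.

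*Atf1* encodes a close relative that dimerizes with CREB on the same element. Its neuron counts ran from 346 to 395 with vehicle and from 332 to 373 with Allo, with means of 366 ± 22.8 and 350 ± 19.3 (SD, n = 4 each). In astrocytes the counts were 712, 765 and 768 with vehicle and 710, 809 and 786 with Allo. The log2 fold changes were -0.064 in neurons and 0.037 in astrocytes, and both were smaller than the spread between libraries.

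*Crem*, the cyclic AMP response element modulator, gives rise to both activators and repressors by alternative promoters and splicing, among them the inducible repressor ICER. The gene-level values used here add all of its transcripts, so these forms cannot be separated. Its promoters are shown because *Crem* was the only member with the full palindrome in a RefSeq promoter window (250 bases before to 50 after an annotated start, GRCr8). Of its 3 windows, 2 held TGACGTCA, and together they held 3 copies. The 150 bases before the start in these windows, and the 20 bases around the copy after the later start, are written 5′ to 3′ on the gene's strand with the palindrome in capitals.
*Crem* window at chr17:58984647-58984796, plus strand: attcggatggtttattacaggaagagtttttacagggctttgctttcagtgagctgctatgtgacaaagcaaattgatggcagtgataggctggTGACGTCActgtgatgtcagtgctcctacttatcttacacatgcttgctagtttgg
*Crem* window at chr17:58985340-58985489, plus strand: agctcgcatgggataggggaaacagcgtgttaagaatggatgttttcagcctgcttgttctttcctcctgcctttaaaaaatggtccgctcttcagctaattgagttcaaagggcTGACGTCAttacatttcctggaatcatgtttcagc
*Crem* downstream of that start at chr17:58985520-58985539, plus strand: gctgcacatTGACGTCAgct
The copies began 56 bases upstream of the first of these starts, and 35 bases upstream and 40 bases downstream of the other. Of all 33469 promoter windows, 1.83% held the palindrome, which reads the same on both strands. The windows of *Creb1* (2), *Crtc1*, *Crtc2*, *Crtc3*, *Crebbp* and *Ep300* (1 each) held none. *Atf1* had no entry.

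In astrocytes *Crem* stood at 357, 402 and 314 normalized counts with vehicle and at 428, 389 and 480 with Allo. All 3 AM-Allo libraries lay above the AM-Veh mean and 2 of them above every AM-Veh library, while the groups overlapped through the middle libraries. The means were 358 ± 44.0 and 432 ± 45.4 (SD, n = 3 each), a ratio of 1.21 and a log2 fold change of 0.27 ± 0.10 (SE) with a 95% interval of 0.055 to 0.49. The unadjusted limma p was 0.018 and the adjusted p was 0.62. The two-sided exact permutation test gave p = 0.2. Without AM-Allo library 3 the change was 0.20 with an unadjusted p of 0.084, and without AM-Veh library 3 it was 0.18 with 0.10, so the unadjusted call rested on those libraries.

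In neurons *Crem* stood at 376, 331, 470 and 462 with vehicle and at 370, 296, 401 and 432 with Allo. Each AM-Allo library was below the AM-Veh library of the same number, in 4 of 4 pairs. The means were 410 ± 67.4 and 375 ± 58.4 (SD, n = 4 each), a log2 fold change of -0.13 with an interval of -0.43 to 0.18 (adjusted p = 0.996 with limma). Leaving out a library moved the value between -0.22, without AM-Veh library 1-2, and -0.019, without AM-Allo library 1-2. The difference did not pass the test with the replicate number as a block either, where its unadjusted limma p was 0.061. With only the first number as a block the unadjusted limma p was 0.109. The labels do not say whether same-numbered libraries were pairs. The *Crem* change in astrocytes exceeded that in neurons by 0.40 on the log2 scale. In a two-sided exact permutation of the treatment labels within each kind of culture this difference had p = 0.091. When neuron labels were exchanged only within same-numbered pairs, the exact permutation p was 0.0187. For *Creb1* the difference was -0.16, with exact permutation p-values of 0.023 and 0.0187. Both forms of the test were run for all 7 members, none passed once adjusted over these, and both were added after the values had been seen.

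*Crem* also differed between the first parts of the neuron replicate number. The labels do not say what that part marks. The 4 libraries of first number 1 had 296 to 376 normalized counts of *Crem* and the 4 of first number 2 had 401 to 470, with no overlap, as for 19.6% of all genes tested. The log2 difference, number 2 minus number 1 with treatment in the fit, was 0.36 ± 0.074 (SE) with an adjusted limma p of 0.0030, and it was 0.40 within AM-Veh and 0.32 within AM-Allo. *Crem* was 1 of 7 members past the adjusted threshold, beside 17.2% of all genes tested. *Atf1* also had no overlap, with 332 to 351 against 359 to 395 counts, and a log2 difference of 0.14. Its unadjusted p was 0.033, a level that 29.3% of all genes passed, and its adjusted p was 0.13. The other 5 members differed by -0.023 to 0.067. The astrocyte markers summed to 170389 to 181470 normalized counts in libraries of first number 1 and to 211466 to 231300 in those of first number 2. The oligodendrocyte lineage markers went the other way, with sums of 42115 to 45138 and 38202 to 38927. So did mesenchymal and endothelial markers (565 to 1761 and 216 to 327) and dividing cell markers (2810 to 3186 and 2091 to 2303). The sums of neuron markers and of microglia markers overlapped. The part of these differences in the *Crem* result was not tested.

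*Crtc1* encodes the CRTC family member best known from neurons. In neuron cultures it stood at 881, 823, 855 and 867 with vehicle and at 830, 911, 951 and 938 with Allo. Of the 4 AM-Allo libraries 3 lay above every AM-Veh library and library 1-1 lay among them. The means were 857 ± 24.5 and 908 ± 54.0 (SD, n = 4 each), and the log2 fold change was 0.082 with an interval of -0.030 to 0.19 (adjusted p of 0.94 with limma). Without AM-Allo library 1-1 the change was 0.12 and had an unadjusted p of 0.022. In astrocytes *Crtc1* varied more, with 647, 466 and 559 counts with vehicle and 639, 633 and 543 with Allo, and the log2 fold change of 0.13 had an interval of -0.097 to 0.35.

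*Crtc2*, the form known from hormonal control of liver glucose output, and *Crtc3* did not differ beyond the spread either. In neurons *Crtc2* ran from 622 to 745 with vehicle and from 625 to 675 with Allo, a log2 fold change of -0.044. In astrocytes it ran from 1051 to 1120 and from 1115 to 1188, a change of 0.066 with an interval of -0.041 to 0.17. *Crtc3* ran from 344 to 386 and from 352 to 403 in neurons, where its 2 highest libraries were AM-Allo 1-1 and 1-2. In astrocytes *Crtc3* had 617, 473 and 517 counts with vehicle and 513, 511 and 483 with Allo, a change of -0.083, whose sign rested on AM-Veh library 1.

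*Crebbp* encodes CBP, the acetyltransferase that binds phosphorylated CREB. Its normalized counts were 1317, 1432, 1317 and 1442 in AM-Veh neurons and 1433, 1378, 1402 and 1441 in AM-Allo neurons. The log2 fold change was 0.039 with an interval of -0.055 to 0.13, which in fold terms spans 0.962 to 1.1. In astrocytes it stood at 1563, 1424 and 1435 with vehicle and at 1503, 1538 and 1604 with Allo, a log2 fold change of 0.072 with an interval of -0.035 to 0.18. Over all members, the 95% intervals of the fold change lay between 0.742 and 1.15 in neurons and between 0.817 and 1.41 in astrocytes, and *Crem* set the lowest bound in neurons and the highest in astrocytes.

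**Figure D2:**
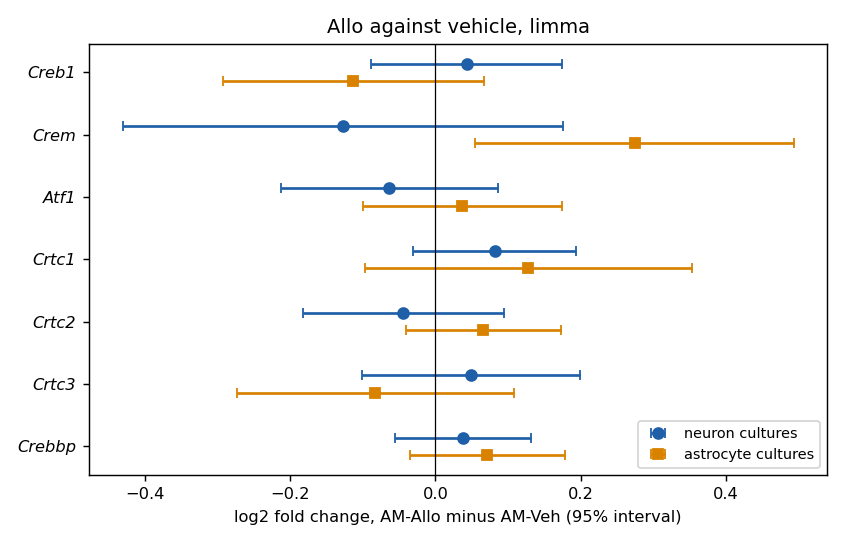
Log2 fold change of AM-Allo against AM-Veh for each member, with its 95% limma interval, for neuron cultures (circles) and astrocyte cultures (squares). Of the 14 intervals, only that of *Crem* in astrocytes, 0.055 to 0.49, does not include 0.

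The balance between members within a library, which does not depend on the scaling, was tested for 5 ratios in each kind of culture, 10 tests in all. None passed after Benjamini-Hochberg adjustment, and the lowest adjusted p was 0.33. The log2 ratio of *Creb1* to *Crem* in astrocytes was -0.24 ± 0.22 with vehicle and -0.63 ± 0.11 with Allo (SD, n = 3 each), with no overlap and an exact permutation p of 0.1, the smallest possible. The ratio of *Crtc1* to *Crtc3* in astrocytes likewise did not overlap, at -0.022 to 0.11 with vehicle and 0.17 to 0.32 with Allo. In neurons the lowest exact permutation p was 0.057, for *Creb1* to *Atf1*, whose mean log2 ratio was -0.071 with vehicle and 0.036 with Allo. The ratios of *Creb1* to *Atf1* and of *Creb1* to *Crem* were higher with Allo in 4 of 4 same-numbered pairs, and an exact permutation within pairs gave each p = 0.125, the smallest that 4 pairs allow.

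The neuron and astrocyte tables were normalized separately, so their levels are given side by side without a test, in CPM. *Atf1* was at 16.5 ± 0.895 CPM in AM-Veh neurons and 31.3 ± 1.23 in AM-Veh astrocytes, a ratio of 1.90, and at 15.8 and 32.2 with Allo. *Crtc1* went the other way, with 38.7 ± 1.09 in AM-Veh neurons and 23.3 ± 3.89 in AM-Veh astrocytes, 1.66 times higher in neurons. *Crtc2* was at 30.0 and 45.6 CPM and *Crtc3* at 16.5 and 22.4, so that both of these were higher in astrocyte cultures, by 1.52 and 1.36 times. Within the CRTC group, then, *Crtc1* was the form that was higher in neuron cultures.

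For *Creb1* the order of the 4 groups was AM-Allo neurons (16.2), AM-Veh neurons (15.7), AM-Veh astrocytes (12.6) and AM-Allo astrocytes (11.6 CPM). Neighbours within a kind of culture did not pass the test. *Crem* stood at 18.5 and 16.9 CPM in AM-Veh and AM-Allo neurons and at 15.0 and 18.1 in AM-Veh and AM-Allo astrocytes, and its ranges overlapped across all 4 groups. *Crebbp* was at nearly the same level throughout, at 62.2 and 63.8 CPM in neurons and at 61.7 and 64.8 in astrocytes. The ranges of the 8 neuron and 6 astrocyte libraries did not overlap for 5 of the 7 members, beside 70.7% of the 14384 genes tested in both.

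**Figure D3:**
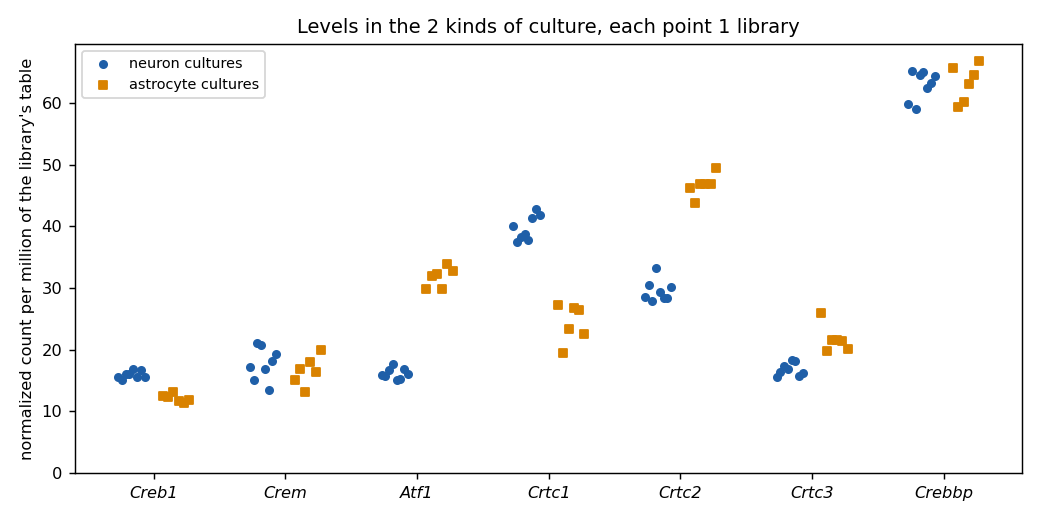
CPM (normalized counts scaled to the same total in every library) of the 7 members, 1 point per library, for neuron cultures (circles, 8 libraries) and astrocyte cultures (squares, 6 libraries). *Atf1* and *Crtc2* lie higher in astrocyte cultures and *Crtc1* in neuron cultures, and the points of *Crem* and *Crebbp* overlap.

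The genes whose pattern over the 14 libraries came closest to each member were named by the root mean square difference of centred log2 CPM. They were *Fam151b* for *Creb1* (0.044), *LOC103689964* for *Crem* (0.12), *Irf2* for *Atf1* (0.033), *Sars2* for *Crtc1* (0.084), *Degs1* for *Crtc2* (0.056), *Gkap1* for *Crtc3* (0.056) and *Ammecr1l* for *Crebbp* (0.043). The median difference over 14383 genes was 0.306 to 0.57, depending on the member.

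Genes that act on CREB were taken from lists written with earlier results of these data known, so their counts are a description. Of 15 kinases that phosphorylate CREB or lie directly upstream of those that do, 14 had a positive log2 fold change in AM-Allo neurons, with a median of 0.052. At an unadjusted p under 0.05, 4 were higher and 0 lower, beside 3.21% of all genes higher, and none passed the adjusted threshold. *Rps6ka1*, which encodes the ribosomal S6 kinase RSK1, stood at 189, 142, 157 and 138 normalized counts with vehicle and at 190, 202, 182 and 227 with Allo, a log2 fold change of 0.36 ± 0.12 (SE), with an adjusted limma p of 0.67. *Camkk1*, a kinase of the calcium/calmodulin cascade, had means of 367 ± 26.0 and 425 ± 21.5 (SD, n = 4 each) with no overlap, a change of 0.21. *Mapk3*, a mitogen-activated protein kinase gene, had a change of 0.14. With the replicate number as a block, 7 kinases were higher at an unadjusted p under 0.05 and 0 lower, beside 5.63% of all genes higher, and again none passed the adjusted threshold. *Camk4*, the nuclear calcium/calmodulin-dependent kinase, was the 1 kinase with a negative value, -0.24 (unadjusted p 0.23).

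In astrocytes, 14 of the kinases could be tested and their median log2 fold change was -0.0057. *Akt1* was at 0.092 and *Rps6ka5*, which encodes the nuclear kinase MSK1, at -0.11, both past an unadjusted p of 0.05 and neither past the adjusted one (0.69 and 0.71 with limma). *Camk4* was below the minimum level in astrocytes. The CREB phosphatases, of which 4 of 5 were measured, had medians of -0.0042 in neurons and -0.0024 in astrocytes, and none passed either threshold.

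Control of CRTC transport was represented by 9 genes. In neurons *Ppp3ca*, a catalytic subunit of calcineurin, had 3199 to 3496 normalized counts with vehicle and 3525 to 3577 with Allo, with no overlap and a log2 fold change of 0.079. *Sik3*, a salt-inducible kinase, had 2485 to 2537 with vehicle and 2231 to 2455 with Allo, also with no overlap, and a change of -0.11. Each passed an unadjusted p of 0.05 and neither passed the adjusted one (0.81 and 0.71 with limma), and the other 7 passed neither. The share of all genes in neurons past the unadjusted threshold was 5.69%, and 3.95% had no overlap. In 19 alternative fits, which changed a setting or left out a library, the unadjusted call was lost in 8 for *Ppp3ca* and in 0 for *Sik3*. In astrocytes none of the 9 passed either threshold.

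Among 15 CREB and ATF relatives, none passed either threshold in neurons, where the median was -0.015. With the block *Atf6b* was lower there at an unadjusted p of 0.037 (log2 fold change -0.083, adjusted 0.43). In astrocytes *Crebl2*, a CREB-like leucine zipper gene, had 578, 553 and 496 normalized counts with vehicle and 473, 410 and 338 with Allo, all 3 lower, with a log2 fold change of -0.43 ± 0.11 (SE) and an adjusted limma p of 0.35. *Atf6b*, a stress-response factor of the endoplasmic reticulum, had 1736, 1877 and 1955 with vehicle and 2040, 2109 and 2089 with Allo, a change of 0.16 (adjusted p = 0.47 with limma). Of the 15 relatives in astrocytes, 1 was higher and 1 lower at an unadjusted p under 0.05, beside 3.72% and 3.29% of all genes. No overlap between the groups was seen for 12.5% of all genes there. Other coactivators, 10 tested in neurons and 9 in astrocytes, passed neither threshold without the block. With it *Ncoa1*, a nuclear receptor coactivator gene, was higher in neurons in 4 of 4 pairs, at an unadjusted p of 0.018 (log2 fold change 0.069, adjusted 0.34). The blocked calls were 1 of 15 relatives and 1 of 10 other coactivators, beside 10.7% of all genes in that fit. Both blocked calls were named after their values had been seen.

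Genes known as CREB targets were listed as well. Of 23 targets tested in neurons, 20 had a negative log2 fold change in AM-Allo and the median was -0.19. At an unadjusted p under 0.05, 6 were lower and 0 higher, beside 2.48% of all genes lower, and none passed the adjusted threshold. The labels do not say whether same-numbered neuron libraries were pairs. With the replicate number as a block, 12 of 23 targets were lower and 0 higher at an unadjusted p under 0.05, beside 5.04% of all genes lower. In that fit 10.7% of all genes passed the unadjusted threshold and 0.607% the adjusted one. The 3 targets that passed the adjusted threshold with the block were *Vgf*, *Sst* and *Scg2*.

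*Vgf*, which encodes a secreted neuropeptide precursor, had 1975, 1921, 2508 and 2457 normalized counts with vehicle and 1010, 824, 1729 and 1369 with Allo. Every AM-Allo library lay below every AM-Veh library. The means were 2215 ± 310 and 1233 ± 401 (SD, n = 4 each), a log2 fold change of -0.89 ± 0.20 (SE) with an adjusted limma p of 0.35, and of 0.000178 with the block. The two-sided exact permutation p was 0.0286, the smallest that 4 against 4 allows. Its promoter window is shown because, of the 5 listed targets with the palindrome, *Vgf* had the largest log2 fold change in neurons. The palindrome began 90 bases before the annotated start.
*Vgf* window at chr12:25277021-25277170, minus strand: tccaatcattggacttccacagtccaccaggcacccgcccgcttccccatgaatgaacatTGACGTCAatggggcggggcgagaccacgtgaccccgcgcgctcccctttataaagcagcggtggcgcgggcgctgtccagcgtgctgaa
Like the *Crem* windows, it came from RefSeq on GRCr8.

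*Sst*, the somatostatin gene of an interneuron class, had 1683, 1598, 2114 and 1994 counts with vehicle and 1112, 855, 1671 and 1380 with Allo. It was lower in 4 of 4 pairs, with a blocked log2 fold change of -0.59 ± 0.066 (SE) and an adjusted limma p of 0.00156. The groups of *Sst* overlapped, and without the block its adjusted limma p was 0.65. *Scg2*, a granin of secretory vesicles, had 4196, 3913, 8886 and 9595 with vehicle and 3360, 3479, 8181 and 8640 with Allo. Its libraries of first number 2 lay far above those of first number 1 in both groups, and without the block its unadjusted p was 0.63. With the block the change was -0.19 ± 0.032 (SE) and the adjusted limma p was 0.0206. *Fosb*, an immediate early transcription factor gene near the minimum level, had a change of -0.91, from 17.1 ± 3.93 to 9.01 ± 3.57 counts (SD, n = 4 each), with an adjusted limma p of 0.74, or 0.33 with the block. The 6 targets lower without the block were *Fosb*, *Vgf*, *Sst*, *Egr1*, *Bdnf* and *Per2*. The block added *Fos*, *Nr4a1*, *Nr4a3*, *Scg2*, *Pcsk1* and *Penk*. *Sst*, *Scg2*, *Egr1*, *Bdnf* and the further targets in this paragraph were named after their values had been seen.

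Markers of cell types moved in the same neuron libraries. With the block, *Gad1*, an enzyme of inhibitory neurons, was lower in AM-Allo (log2 fold change -0.41, adjusted limma p 0.0445), while *Tubb3*, a neuronal tubulin, was higher (0.21, adjusted limma p 0.0460). The oligodendrocyte lineage gene *Mbp* was also higher (0.19, adjusted limma p 0.0383). Without the block the unadjusted limma p was 0.0529 for *Gad1*, 0.00271 for *Tubb3* and 0.539 for *Mbp*. *Slc17a7*, the transporter of excitatory neurons, was at 0.29 with an adjusted limma p of 0.0636. At an unadjusted p under 0.05 with the block, 3 of 6 neuron markers were higher and 1 lower, 1 of 6 astrocyte markers higher and 2 lower, and 5 of 7 oligodendrocyte lineage markers higher. Of the mesenchymal and endothelial markers 2 of 4 were higher, and of the dividing cell markers 1 of 4. The 2 were *Col1a1* and *Col1a2*, higher in 3 of 4 and 4 of 4 pairs. AM-Allo library 1-1 had 840 and 701 counts of them, against 93.5 to 243 and 63.8 to 131 in the other AM-Allo libraries. Over all genes in that fit, 5.63% were higher and 5.04% lower. Without the block, 3 of 6 neuron markers were higher and 0 lower at an unadjusted p under 0.05. No marker of another type passed, beside 3.21% of all genes higher and 2.48% lower. Neuron markers summed to 38457 to 42062 normalized counts with vehicle and 41356 to 45907 with Allo. Astrocyte markers summed to 171284 to 231300 and 170389 to 224796, and oligodendrocyte lineage markers to 38202 to 42610 and 38323 to 45138. None of these markers was at 0. The part of these shifts in the target values was not tested.

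**Figure D4:**
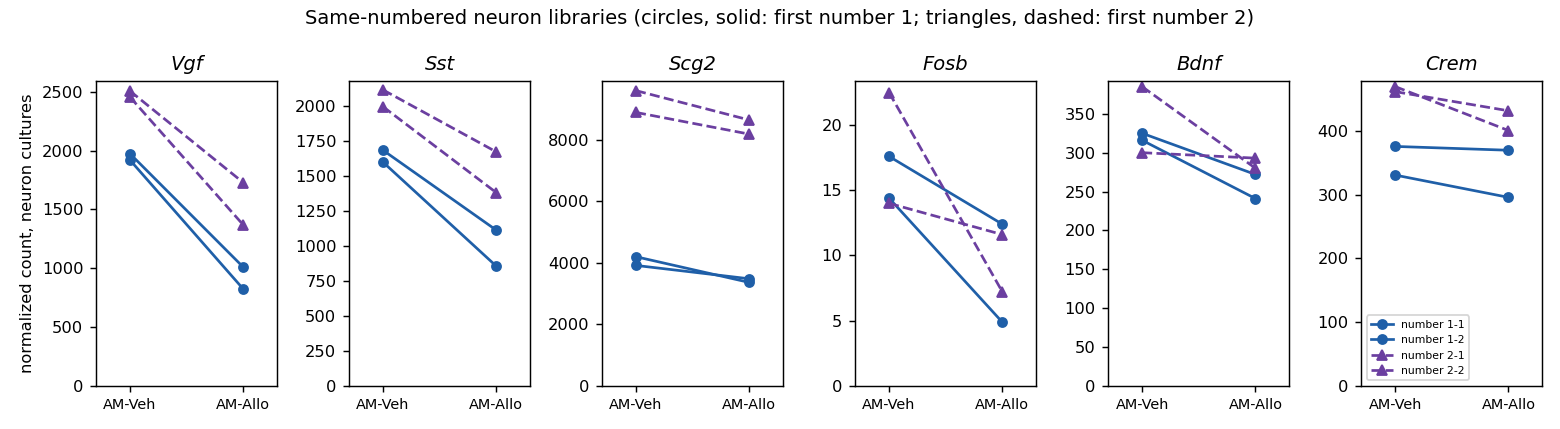
Normalized counts in neuron cultures for 5 CREB targets and *Crem*, with a line joining the AM-Veh and AM-Allo library of each replicate number. Circles with solid lines are first number 1, and triangles with dashed lines first number 2. Every line runs downward, in 4 of 4 pairs for each gene shown, and the *Scg2* lines of first number 2 span 8181 to 9595 counts and those of first number 1 span 3360 to 4196. The genes were picked with their values known, and not every listed target fell in all pairs. *Egr1* was lower in 3 of 4, *Dusp1* in 2 of 4 and *Gadd45b* in 0 of 4.

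In astrocytes, 20 targets were tested, 7 with a positive and 13 with a negative log2 fold change and a median of -0.032, whose sign changed when a single library was left out. *Gadd45b*, a stress-inducible gene linked to DNA demethylation, had 627, 693 and 640 normalized counts with vehicle and 704, 875 and 774 with Allo, a log2 fold change of 0.26 (adjusted p of 0.50 with limma). *Scg2* had 16018, 14588 and 15198 with vehicle and 14405, 13063 and 13996 with Allo, a change of -0.14 (adjusted p of 0.50 with limma). The third at an unadjusted p under 0.05 was *Penk*, at -0.14. In all 1 target was higher and 2 were lower, beside 3.72% and 3.29% of all genes tested. *Vgf* in astrocytes stood at means of 302 and 344, a change of 0.18 with an unadjusted p of 0.074.

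**Figure D5:**
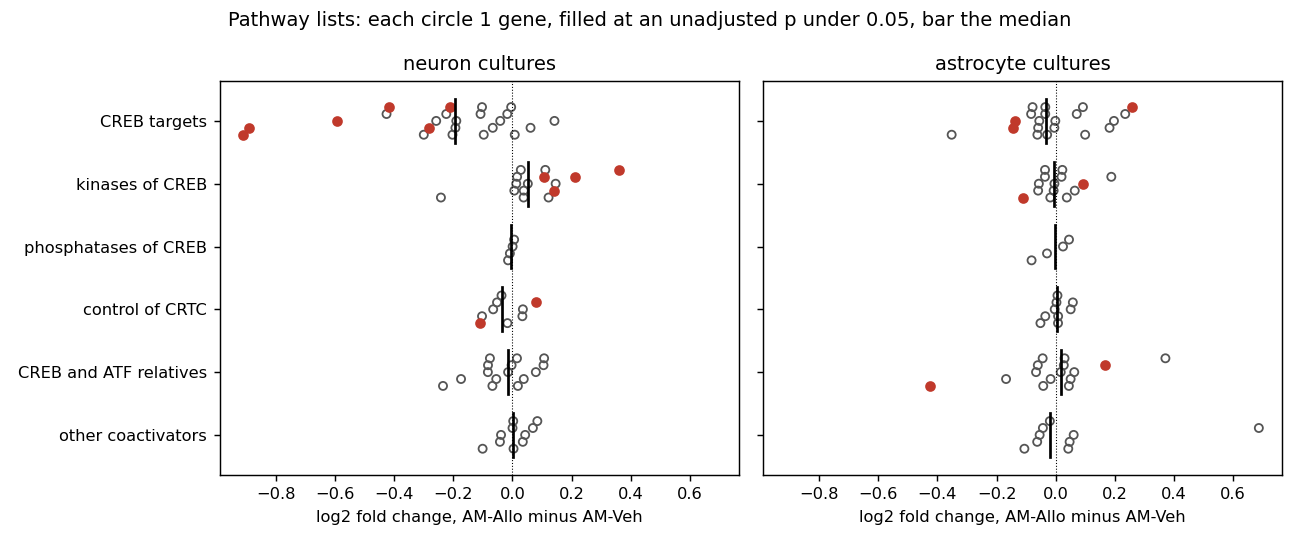
Log2 fold change of AM-Allo against AM-Veh for the genes of each pathway list, neuron cultures on the left and astrocyte cultures on the right. Each circle is 1 gene, filled circles passed an unadjusted p of 0.05 without a block, and bars mark the median, which for CREB targets is -0.19 in neurons and -0.032 in astrocytes.

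Genes with the palindrome TGACGTCA in a promoter window were then taken as a group, without regard to what is known of them. Of the 10398 genes tested in neurons that had a RefSeq window, 327 held it, or 3.14%. Their median log2 fold change was -0.0097, beside -0.00053 for genes without it. At an unadjusted p under 0.05, 8 were higher and 9 lower, 5.20% of the group in all, beside 5.63% of genes without it. With the block 40 passed, or 12.2% beside 10.6%. Of the 40, 17 were higher and 23 lower, or 5.2% and 7.03% of the group beside 5.5% and 5.07% of genes without the palindrome. Beside 64 of the 10071 genes without it, 4 of the 327 passed the adjusted threshold, *Ptpru*, *Scg2*, *Sst* and *Vgf*. Of these, *Ptpru*, which encodes a receptor tyrosine phosphatase, was higher, with means of 354 ± 22.3 and 487 ± 34.1 (SD, n = 4 each) and no overlap. The further genes named by rule were *Celf6*, at 0.22, and *Izumo1*, at -1.01 with means of 16.4 and 8.31 counts.

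In astrocytes, 323 of 10393 genes with a window held the palindrome. Their median log2 fold change was 0.0081, beside 0.0039 for genes without it, and 11 were higher and 13 lower at an unadjusted p under 0.05. That was 7.43%, beside 6.0% of genes without it, and none passed the adjusted threshold. *Cox8a*, a subunit of cytochrome c oxidase, had 1900, 1833 and 2074 normalized counts with vehicle and 2141, 2690 and 2569 with Allo, with no overlap and a log2 fold change of 0.34 (adjusted p of 0.24 with limma). *Snrpg*, a core spliceosomal protein gene, was at 0.58 with overlapping groups. *Nkrf* and *Fam50a* were at -0.67 and -0.49. The share of listed CREB targets with the palindrome was 5 of the 18 that had a window, namely *Dusp1*, *Ppargc1a*, *Vgf*, *Scg2* and *Sst*, and in neurons *Dusp1* and *Ppargc1a* were at 0.0077 and -0.067 and passed no threshold.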

How the data were processed

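RNA-seq values of 8 neuron and 6 astrocyte libraries were used, grouped by their labels. The authors prepared poly(A)-selected stranded libraries, estimated transcript counts on Ensembl release 95 with Salmon 0.14, collapsed these by gene (tximport) and scaled libraries with DESeq2 1.18.1. They deposited this normalized count signal, listed by symbol, and variance-stabilized values on a log2 scale. In the neuron variance-stabilized table the means of first numbers 1 and 2 were equal (within 1e-06) for all 18239 genes. In the normalized counts this held for 0 genes.

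Genes averaging 10 or more normalized counts per library were fitted with limma 3.58.1 (lmFit, eBayes with trend) in R 4.3.3 on log2(normalized count + 1), so fold changes of low genes are understated. The script was tested on simulated data. Reads on genes were estimated from the step between a library's lowest values. Whole reads could not be recovered, since 61.6% to 92.3% of low values were whole within 0.15 reads. Same-numbered AM-Veh and AM-Allo neuron libraries deviated together (correlation over genes 0.229 to 0.296). Those sharing only the first number did so nearly as much (0.185 to 0.236), and other neuron combinations did not (-0.319 to -0.15). The shared deviation thus followed mainly the first number, and the labels do not say whether same-numbered libraries were pairs. In astrocytes, same-numbered libraries did not deviate together (-0.007 to 0.024). Blocked values therefore stand beside the neuron results that they change.

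The members, lists and tests were chosen with earlier results of these data known. Named from each list were the 2 genes with the largest change per kind of culture at an unadjusted p under 0.05 and any past the adjusted threshold, from palindrome genes the 2 largest rises and falls, and for each member the gene of nearest pattern. Symbols turned into dates, 21 and 24 in the tables of normalized counts, matched no list. A listed gene is not reported by name here.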

Additional observations from a re-analysis of the deposited data

Results flagged for a closer look

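*Crem* had log2 fold changes of opposite sign in the 2 kinds of culture, -0.127 in neurons and 0.275 in astrocytes. In neurons each AM-Allo library lay below the AM-Veh library of its number, though 1 of 4 lay above the AM-Veh mean. In astrocytes, where same-numbered libraries did not deviate together, each AM-Allo library lay above the AM-Veh mean. The exact permutation test of the difference gave p = 0.091 with free exchange of neuron labels and p = 0.0187 with exchange within pairs. It did not pass when adjusted over the 7 members. No library stood apart in the 14 neuron groups of 4 that were looked at, and groups of 3 were not looked at.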

How the results depend on the processing

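No alternative brought a member past the adjusted threshold for Allo (0 in every fit of either kind of culture). At an unadjusted p under 0.05 the count in neurons ranged from 0 to 1 with a library left out, and in astrocytes from 0 to 3. The astrocyte count was 0 without the trend. Without AM-Veh library 1 the 3 were *Crem*, *Crtc1* and *Crebbp*. A block for the whole number or the first number gave larger neuron counts for targets lower (12 and 12), kinases higher (7 and 7) and palindrome genes (40 and 39). It raised all genes called from 872 to 1634 and 1684 unadjusted, and from 4 to 93 and 104 adjusted. Variance-stabilized values, in which the means of the first numbers are equal, gave 12, 7 and 56 and could not be fitted for the first number. The shorter site TGACG or its reverse complement gave 179 and 205 palindrome-type genes, and no trend 15 in astrocytes. Leaving out a library gave 13 to 20 palindrome genes in neurons, 19 to 31 in astrocytes, and 5 to 8 targets. By first number, 2 members passed without the trend. No ratio passed in any fit (0). Values near 0 changed sign when a library was left out. In neurons the lowest and highest values were -0.075 and 0.011 for *Crtc2*, and -0.025 and 0.11 for the log2 ratio of *Crtc1* to *Crtc3*. By first number they were -0.0015 and 0.10 for *Crtc2*, -0.063 and 0.014 for *Crtc3* and -0.014 and 0.038 for *Crebbp*. In astrocytes they were -0.0016 and 0.093 for *Atf1*, -0.17 and 0.023 for *Crtc3*, and -0.035 and 0.17 for the ratio of *Crtc1* to *Crtc2*. The causes were not tested.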
